A study of Equus caballus with 2 samples.

Results

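The barcodes described here are the low-UMI, high-MT barcodes of 2 single cell libraries of cultured equine endometrial fibroblasts. A barcode stands for the contents of 1 droplet, a UMI (unique molecular identifier) for 1 captured RNA molecule, and the MT share is the percentage of a barcode's UMIs that fell on the MT- genes, those of the mitochondrial genome. A barcode was a member of the set when it held fewer than 20000 UMIs and at least 4% of them were on MT- genes. This rule took 643 of all 9508 barcodes, which were thus chosen by their measured depth and MT share. Each was set against the kept cells of its own library, which are the barcodes that reached 20000 UMIs and 3500 genes and had an MT share under 4%.

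The cells were fibroblasts grown out of the endometria of 4 mares with no or mild fibrosis, taken to the same passage and cultured on collagen-coated hydrogel. The control group received serum-free medium with no supplement, and the TGF-β1 group received the same medium to which recombinant human TGF-β1 was added at 10 ng/ml. TGF-β1 is the growth factor most used to drive fibroblasts towards a matrix-producing, contractile state. Both groups were harvested after 24 h. Cells of the 4 mares were pooled within each treatment before capture, so that each condition was 1 library and no difference between conditions or between barcode classes has a replicate. All intervals below are exact binomial 95% intervals and cover counting error only, no p-value is given, and the barcodes of a library are not replicates of a condition. Cells treated with MFGE8 were not analysed here.

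When the plasma membrane of a cell leaks, RNA that is free in the cytosol can leave before or during droplet capture, whereas transcripts inside the mitochondria lie behind 2 further membranes. A high MT share together with few UMIs is therefore widely used to discard barcodes. Other RNAs are also held in place in an intact fibroblast: mRNAs of secreted and membrane proteins are translated on the endoplasmic reticulum (ER), and unspliced or retained RNA sits in the nucleus. The comparison asks which transcripts the discarded barcodes still held.

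Low-UMI, high-MT barcodes made up 205 of 4384 control barcodes (4.68%, interval 4.07 to 5.34) and 438 of 5124 TGF-β1 barcodes (8.55%, interval 7.80 to 9.35). With 1 library per condition, treatment and library preparation cannot be told apart as the source of that difference. Their median depth was 4373 UMIs in the control and 5622.5 UMIs in the TGF-β1 library, against 50313 and 43142 UMIs in kept cells. The median MT share was 22.3% and 14.9%, against 1.47% and 1.21%. These values chose the members and are given as a description. The shallowest barcode of all held 500 UMIs in the control and 501 in the TGF-β1 library, so that shallower droplets are not part of the set. Of the barcode sequences, 6 occurred in both libraries, and 1 of these was a low-UMI, high-MT barcode in at least 1 of them.

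Counted per barcode, the same choice by depth and MT share gives the following values, which are a description too. A low-UMI, high-MT barcode held on average 1279 MT- UMIs in the control and 894 under TGF-β1, 1.54-fold and 1.45-fold more than the 828 and 617 of a kept cell. It held 5228 and 5381 UMIs on all other genes, 10.3-fold and 8.93-fold fewer than the 53634 and 48071 of a kept cell. Less RNA in a cell and less RNA captured from it cannot be told apart in these counts.

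**Figure D1:**
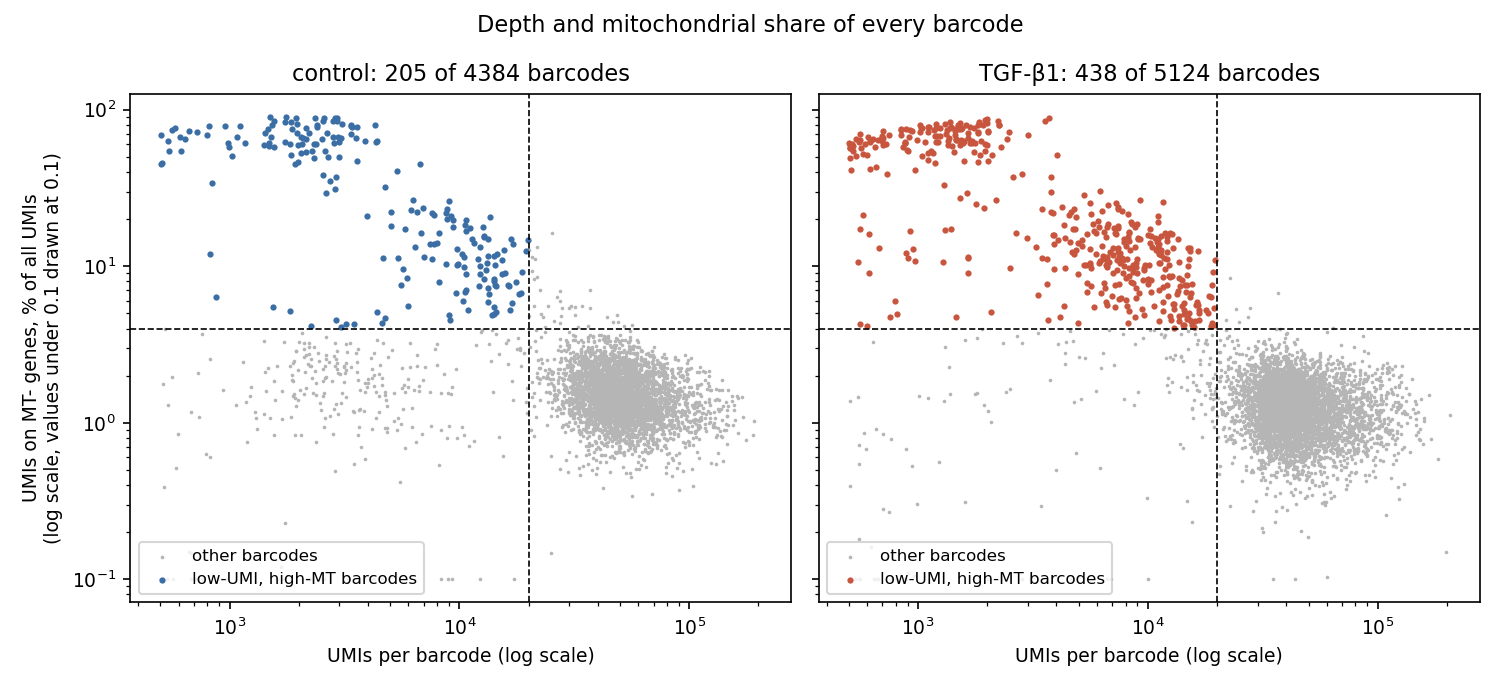
UMIs per barcode (x axis, log scale) against the percentage of UMIs on MT- genes (y axis, log scale) for every barcode of the control and TGF-β1 libraries, with dashed lines at 20000 UMIs and 4%. The 205 control and 438 TGF-β1 low-UMI, high-MT barcodes (coloured) fall into a band mostly above 5000 UMIs with an MT share below about 25% and a group under 5000 UMIs with an MT share above 50%.

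The set was not uniform, as the plot of depth against MT share shows. In the control library 80 of the 205 barcodes (39.0%) had an MT share of 50% or more, and all of these held under 5000 UMIs. In the TGF-β1 library this was so for 127 of 438 (29.0%). A larger group had an MT share under 25% and at least 5000 UMIs, with 93 control barcodes (45.4%) and 224 TGF-β1 barcodes (51.1%). Only 18 control and 25 TGF-β1 barcodes had an MT share between 25% and 50%. The barcodes with 50% or more had a median of 214.5 and 222 detected genes and a mean of 599.7 and 413 non-MT UMIs, so that they contributed 47976 of 1071826 control and 52436 of 2356675 TGF-β1 non-MT UMIs of the set. Summed values over the set therefore describe mainly the barcodes with lower MT shares.

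Barcodes on both sides of the limits of the rule were compared by 1 value. The share of non-MT UMIs on cytosolic ribosomal protein genes had a median of 18.1% and 15.8% in kept cells. Just under the depth limit, from 15000 to 20000 UMIs, 16 control and 30 TGF-β1 members had a median of 2.73% and 1.88%. Just above it, from 20000 to 25000 UMIs at the same MT limit, 14 control and 4 TGF-β1 barcodes had a median of 2.75% and 5.06%. At an MT share of 4% to 5%, 11 control and 31 TGF-β1 members had a median of 15.3% and 4.76%, and just under the MT limit, from 3% to 4% at fewer than 20000 UMIs, 28 and 34 barcodes had a median of 15.7% and 7.70%.

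Fibroblast markers were present in the set. All 12 were found by symbol in the libraries and 11 were abundant enough to be compared. Relative to kept cells, 2 of these (18.2%) were more than 2-fold higher and 2 (18.2%) more than 2-fold lower in both libraries, against 32.9% and 20.5% of all compared genes, with a median log2 ratio of -0.28 in the control and -0.27 under TGF-β1, which is 0.69 and 0.64 below that of all compared genes. COL1A1, which encodes a chain of type I collagen, stood at 9880.3 CPM in the control members and 9646 in the TGF-β1 members. The higher markers COL3A1 and PDGFRB and the lower marker VIM are described with their lists. The lowest log2 ratio of a marker was -1.58 in the control and -1.91 under TGF-β1, below that of VIM. CPM (counts per 1000000) here means UMIs per 1000000 UMIs outside the MT- genes. Of the markers of other cell types, the pericyte and smooth muscle list, which includes contractile genes that cultured fibroblasts also express, summed to 1974 CPM in control and 2006 in TGF-β1 members, against 4619 and 5931 in kept cells. The other lists were sparse. PTPRC, the pan-leukocyte marker CD45, had 0 UMIs in both libraries, and 11 of 15 immune features were at 0 in each library, although not the same 11. Of 10 epithelial markers, 4 had no UMI in each library, and the whole list summed to 90 and 42 UMIs, or 84.0 and 17.8 CPM, against 137 and 12.8 CPM in kept cells. A single TGF-β1 barcode of 15316 UMIs and 12.5% MT share held 15 of the 16 UMIs on the epithelial adhesion gene CDH1. The 12 endothelial markers summed to 29 and 172 UMIs, or 27.1 and 73.0 CPM against 14.2 and 24.7 CPM in kept cells, of which the transcription factor gene ERG alone gave 25 and 162, spread over 18 and 70 barcodes. The endothelial genes CDH5, ROBO4 and TIE1 had 0 UMIs in both libraries. The 5 erythroid markers summed to 39 and 34 UMIs, with 4 of them at 0 in each library. The part of such RNA in the results below was not tested.

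Across genes, the low-UMI, high-MT barcodes differed broadly from kept cells, and in much the same way in both libraries. A gene was compared when the mean of its CPM in the 2 barcode classes was at least 50 in each library, which 3294 genes were. It was counted as higher or lower when its CPM differed by more than 2-fold in the same direction in both libraries. By this rule 1083 genes (32.9%) were higher and 676 (20.5%) were lower in the low-UMI, high-MT barcodes, and no gene passed 2-fold in opposite directions. The log2 ratio had the same sign in both libraries for 3172 genes (96.3%), and it differed by more than 1 between the libraries for 6. The 10th and 90th percentiles of the log2 ratio were -1.55 and 1.71 in the control and -1.66 and 1.69 in the TGF-β1 library. The members were drawn from the same 2 cell pools as the kept cells, and the agreement between libraries covers 1 harvest of each.

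These ratios are relative to the remaining RNA, and "higher" means a larger share of a smaller pool. Of the 3294 genes, 5 in the control and 6 in the TGF-β1 library had more UMIs per barcode in members than in kept cells. The median log2 ratio of all compared genes was 0.41 in the control and 0.37 in the TGF-β1 library. When the libraries were scaled by the median of gene ratios over all genes instead, 219 genes were higher and 1143 lower, so that the genes higher made up 16.1% of calls in place of 61.6%. With the MT- genes left in the total, 705 were higher and 801 lower, which is 46.8% of calls higher. Without a minimum on CPM, 3749 were higher and 1072 lower, 77.8% of calls higher. For the main lists the position relative to the median of all compared genes is given too, which a change of scaling factor over the same genes does not move.

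**Figure D2:**
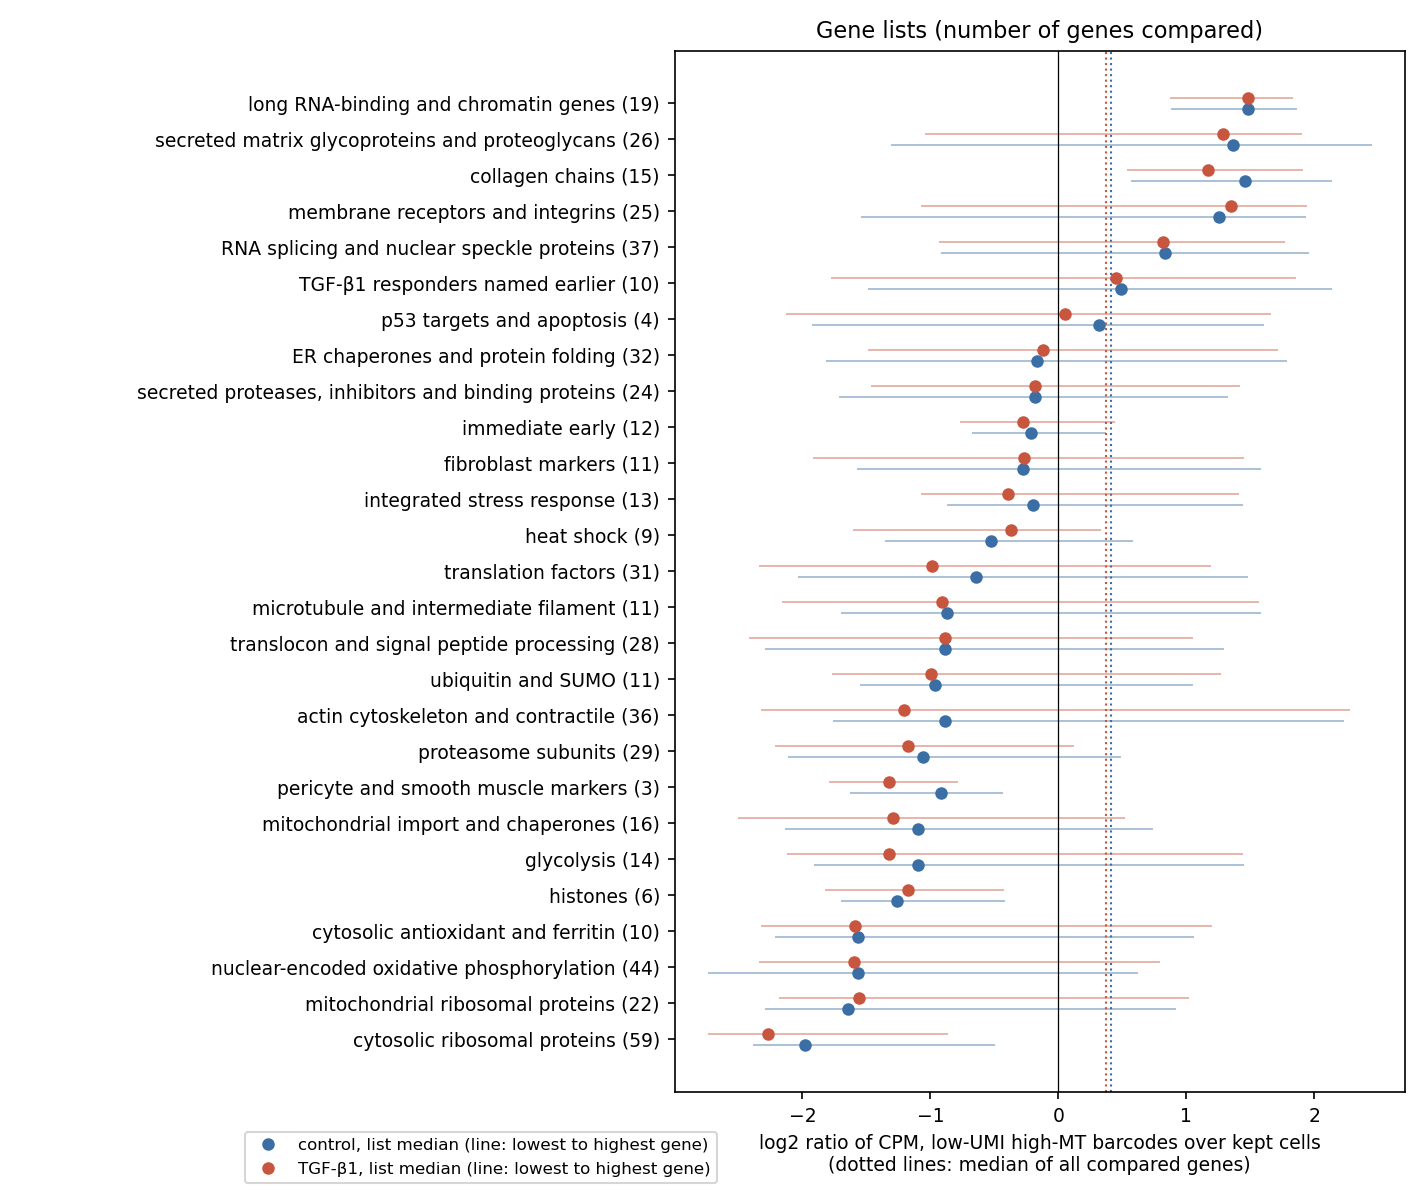
Median log2 ratio of CPM, low-UMI, high-MT barcodes over kept cells, for each gene list (points, blue for control and red for TGF-β1), with lines from the lowest to the highest gene of the list and dotted lines at the median of all compared genes. Cytosolic ribosomal proteins lie lowest, at -1.98 and -2.27, and long RNA-binding and chromatin genes highest, at 1.48 in both libraries.

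Transcripts of the cytosolic ribosome were the list with the lowest median in summed CPM. These genes encode the proteins of the 40S and 60S subunits, and their mRNAs are short, abundant and translated in the cytosol. Their share of non-MT UMIs was 4.62% in the control members against 17.7% in kept cells, and 3.39% against 15.6% in the TGF-β1 library. Of 59 compared members of the list, 57 were lower and none was higher, and their median log2 ratio was -1.98 and -2.27, which is 2.39 and 2.64 below the median of all genes. When each barcode was given equal weight, by the mean of per-barcode CPM, 27 of the 59 were lower and the list lay at -0.89 and -0.97 relative to all genes. On that scale it was the lowest list in neither library, with mitochondrial ribosomal proteins at -1.02 in the control and the 3 compared pericyte and smooth muscle markers at -1.20 under TGF-β1. Over all genes that measure gave 376 higher and 252 lower of 2922, fewer than the main scale.

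RPS13, a protein of the small subunit, stood at 2197 CPM in kept control cells and 440.4 in control members, and at 2022 and 303 CPM in the TGF-β1 library. Its log2 ratio was -2.32 (interval -2.45 to -2.19) in the control and -2.74 (-2.85 to -2.63) in the TGF-β1 library. Counted per barcode, RPS13 went from 118 UMIs in a kept control cell to 2.30 in a member. RPS27A was close to it, with log2 ratios of -2.35 in the control and -2.69 in the TGF-β1 library. Of the 10 lowest genes with a symbol, 8 encode ribosomal proteins. RPL3, of the large subunit, was less reduced, at -1.09 in both libraries. The 2 genes of the list that did not pass 2-fold were RPL4, with -0.50 and -0.86, and RPL7L1, a nuclear relative of RPL7, with -0.84 and -1.10. Ribosomal protein genes have many near-identical processed copies in mammalian genomes, and the files do not say how shared reads were counted, so that the split of UMIs among single ribosomal genes is uncertain.

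Transcripts of nuclear-encoded mitochondrial proteins were mostly lower. Their mRNAs are made in the nucleus and translated largely in the cytosol, and the proteins are then imported. Of 44 compared genes for subunits of oxidative phosphorylation, 36 were lower and none was higher, with a median log2 ratio of -1.57 and -1.59. Of 22 mitochondrial ribosomal proteins, 19 were lower, with a median of -1.64 and -1.56, and of 16 import factors and chaperones, 9 were lower, with a median of -1.10 and -1.29. By the mean of per-barcode CPM, 9 of 46 oxidative phosphorylation genes, 5 of 22 mitochondrial ribosomal proteins and 2 of 18 import genes were lower, against 252 of all 2922 compared genes, and the medians of the first of these lists were -0.88 and -0.83 relative to all genes. The lowest subunit in the control was NDUFB5, of respiratory complex I, at 41.1 CPM in the control members against 274 in kept cells (log2 -2.74, interval -3.20 to -2.31) and at 62.0 against 248 CPM in the TGF-β1 library (log2 interval -2.25 to -1.77). In the opposite direction stood SDHA, the flavoprotein of complex II, with log2 ratios of 0.62 and 0.80, and MRPL15, a mitochondrial ribosomal protein, with 0.92 and 1.02.

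Transcripts of several abundant cytosolic proteins were lower. TPT1, which encodes the translationally controlled tumour protein, stood at 1613 CPM in members against 6622 in kept control cells and at 1536 against 7782 in the TGF-β1 library, with log2 ratios of -2.04 and -2.34. HINT1, a nucleotide hydrolase, had log2 ratios of -2.43 and -2.47. FTH1, the heavy chain of ferritin, stood at 397 CPM in members against 1847 in kept control cells and at 204 against 1023 in the TGF-β1 library (log2 -2.22 and -2.33), and it was the lowest of 10 compared antioxidant and ferritin genes, of which 8 were lower. The single gene of that list that was higher was GCLC, the catalytic subunit of glutathione synthesis, at 1.06 and 1.20. Its control value was -0.12 when only members under 10000 UMIs were taken.

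Glycolysis genes were mostly lower too. Of 14 compared genes 8 were lower, with a median log2 ratio of -1.10 and -1.32. GAPDH, the glyceraldehyde-3-phosphate dehydrogenase often used as a reference gene, stood at 1089.7 CPM in members against 3638 in kept control cells and at 903 against 3926 in the TGF-β1 library (log2 -1.74 and -2.12). LDHB had log2 ratios of -1.91 and -1.95. The regulatory enzyme gene PFKFB3 was the only glycolysis gene that was higher, at 1.45 and 1.44, and no glycolysis gene was higher with MT- genes in the total, by the median of gene ratios or by the mean of per-barcode CPM. Of 29 proteasome subunits 13 were lower and none was higher, of 11 ubiquitin and SUMO genes 5 were lower and 1 higher, and of 6 histone genes 5 were lower. By the mean of per-barcode CPM, 1 of 12 glycolysis genes, 4 of 28 proteasome subunits, 1 of 11 ubiquitin and SUMO genes, 2 of 6 histone genes and 3 of 9 antioxidant and ferritin genes were lower, against 252 of all 2922 compared genes.

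Of 31 compared translation factors 15 were lower (48.4%) and 1 was higher (3.23%), against 20.5% and 32.9% of all compared genes, and the list median was -0.64 and -0.99. EEF1B2, an exchange factor of elongation, had log2 ratios of -1.76 and -2.28. The only higher gene was EIF4G1, the large scaffold of cap-dependent initiation, at 217 CPM in members against 78.0 in kept control cells and at 212 against 92.7 in the TGF-β1 library (log2 1.48 and 1.19). No translation factor was higher with MT- genes in the total, by the median of gene ratios, by the mean of per-barcode CPM or with members under 10000 UMIs, and 15, 21, 4 and 11 of the 31 were then lower. Of all compared genes, 801 of 3005, 1143 of 3294, 252 of 2922 and 571 of 3166 were lower in these settings.

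Of 36 compared actin and contractile genes 15 were lower (41.7%) and 5 higher (13.9%), against 20.5% and 32.9% of all compared genes. By the median of gene ratios 23 were lower and 1 was higher, against 1143 and 219 of all 3294 genes. By the mean of per-barcode CPM 7 of 35 were lower and 4 higher, against 252 and 376 of all 2922 genes. CFL1, the actin-severing protein cofilin, had log2 ratios of -1.76 and -2.32. TMSB10, a small actin monomer-binding peptide, stood at 1771 CPM in members against 5523 in kept control cells and at 1752 against 6920.4 in the TGF-β1 library. The contractile genes TAGLN and ACTA2, markers of the myofibroblast state, had log2 ratios of -1.48 and -1.62 in the control and -1.77 and -1.79 in the TGF-β1 library. Among the higher genes were LPP and PDLIM5, adaptor proteins of adhesion sites, with 1.73 and 1.69 in the control and 1.68 and 1.71 in the TGF-β1 library. VIM, the intermediate filament of mesenchymal cells, was lower, with log2 ratios of -1.42 and -1.71, and TUBA1B, an alpha tubulin, had -1.70 and -2.16. MAP4, a large microtubule-associated protein, was the only one of 11 microtubule and filament genes that was higher, at 1.58 and 1.57, and 4 of the 11 were lower. By the median of gene ratios none of the 11 was higher and 7 were lower.

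Extracellular matrix transcripts took a larger share of what was left. Collagen chains made up 3.45% of non-MT UMIs in the control members against 1.73% in kept cells, and 4.16% against 2.12% in the TGF-β1 library. Of 15 compared chains, from 43 collagen symbols in the files, 10 were higher and none was lower, and their median log2 ratio was 1.46 and 1.17, which is 1.05 and 0.80 above that of all genes. COL12A1, a fibril-associated collagen, was the highest in the control library, at 1671 CPM in members against 379 in kept cells (log2 2.14, interval 2.07 to 2.21), and stood at 3910 against 1080.3 CPM in the TGF-β1 library (1.86, 1.83 to 1.89). COL5A2, a chain of type V collagen that sets fibril diameter, had log2 ratios of 1.80 and 1.91. The fibrillar genes with the most UMIs had smaller ratios: COL3A1 had 1.10 in both libraries, COL1A1 0.79 and 0.58, and COL1A2 0.57 and 0.65. A member held fewer UMIs of each, with 50.6 COL3A1 UMIs per barcode against 243 in a kept control cell and 65.2 against 272 in the TGF-β1 library. Members were chosen for low depth, so these values per barcode are a description only.

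Matrix glycoproteins and proteoglycans behaved alike in number, with 15 of 26 compared genes higher and none lower in both libraries, but their single genes covered a wide range. FN1, fibronectin, stood at 5643 CPM in members against 1964 in kept control cells and at 15425 against 6165 in the TGF-β1 library (log2 1.52 and 1.32). HSPG2, which encodes the very large basement membrane proteoglycan perlecan, had log2 ratios of 2.45 and 1.83, TNC, the matrix protein tenascin C, 2.00 and 1.67, and EMILIN1, a protein of elastic fibres, 2.07 and 1.90. Other members of the list had ratios below 0 and were not among the calls. MFAP2, a microfibril glycoprotein, had -1.30 and -0.99, and the small leucine-rich proteoglycans LUM, DCN and BGN had -0.97, -0.86 and -0.61 in the control and -0.97, -0.77 and -1.05 in the TGF-β1 library. Under scaling by the median of gene ratios, 4 of the 15 collagen chains were higher and none was lower, and 4 of the 26 matrix genes were higher and 4 lower, against 219 higher and 1143 lower of all 3294 genes. By the mean of per-barcode CPM, 5 of 15 and 7 of 25 were higher, against 376 of all 2922 genes, and 1 of the 25 matrix genes was lower.

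Of 24 compared secreted proteases, inhibitors and binding proteins, 2 were higher and 5 lower, near the 20.5% of all compared genes that were lower, with a median log2 ratio of -0.18 in both libraries. By the median of gene ratios, none was higher and 12 were lower, against 219 and 1143 of all 3294 genes. TIMP1, an inhibitor of matrix metalloproteinases, stood at 1255 CPM in members against 3245 in kept control cells and at 3180 against 8000 in the TGF-β1 library, and CST3, the cysteine protease inhibitor cystatin C, had log2 ratios of -1.72 and -1.46. The 2 higher genes were ADAMTS2, the procollagen N-proteinase, at 1.33 and 1.42, and IGFBP5, an insulin-like growth factor binding protein, at 1.28 and 1.41.

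Of 28 compared translocon and signal peptide processing genes of the secretory machinery, 10 were lower (35.7%) and 2 higher (7.14%), against 20.5% and 32.9% of all compared genes. None was higher with MT- genes in the total, by the median of gene ratios, by the mean of per-barcode CPM or with members under 10000 UMIs, where 15 of 26, 19 of 28, 6 of 26 and 11 of 26 were lower. Of all compared genes, 801 of 3005, 1143 of 3294, 252 of 2922 and 571 of 3166 were lower there. SSR4, a subunit of the translocon-associated complex, had log2 ratios of -2.29 and -2.42, and SEC61G, a channel subunit, -1.67 and -2.15. SEC61A1, the pore-forming channel subunit, stood at 368 CPM in members against 149.8 in kept control cells and at 337 against 165 in the TGF-β1 library, and STT3B, a catalytic subunit of oligosaccharyl transferase, had 1.24 and 1.05. Of 32 ER chaperones and folding enzymes 4 were lower (12.5%) and 1 higher (3.13%), both smaller shares than the 20.5% and 32.9% of all compared genes. By the median of gene ratios 10 were lower and 1 higher, against 1143 and 219 of all 3294 genes. The cyclophilin PPIB had -1.81 and -1.49, and the higher gene was UGGT1, the glucosyltransferase that checks glycoprotein folding, with 1.79 and 1.72.

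Of 25 compared membrane receptors and integrins 14 were higher and 2 lower, with a median log2 ratio of 1.26 and 1.35. IGF1R, the receptor for insulin-like growth factor 1, stood at 1018 CPM in members against 266 in kept control cells and at 1043 against 289 in the TGF-β1 library (log2 1.94 and 1.85). NOTCH2 had 1.91 and 1.81, the co-receptor gene NRP1 1.82 and 1.94, and PDGFRB, a receptor for platelet-derived growth factor, 1.58 and 1.45. The 2 lower genes were CD63, a tetraspanin of endosomes and exosomes, with -1.54 and -1.07, and BSG, basigin, with -1.02 and -1.03. Under scaling by the median of gene ratios, 4 of the 25 were higher and 5 lower, against 219 and 1143 of all 3294 genes. By the mean of per-barcode CPM 7 were higher, against 376 of all 2922 genes.

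The list with the highest median held genes of very large proteins, mainly chromatin and RNA-binding proteins together with giant linker and Golgi proteins. Of 19 compared genes 15 were higher and none was lower, and all 19 lay between 0.87 and 1.87 on the log2 scale, with a median of 1.48 in both libraries. DST, the giant linker protein dystonin, stood at 1617 CPM in members against 443 in kept control cells and at 1699 against 478 in the TGF-β1 library. The transcription repressor genes ZEB1 and ZEB2 had log2 ratios of 1.75 and 1.69 in the control and 1.81 and 1.78 in the TGF-β1 library. Splicing and nuclear speckle proteins had a median 0.42 and 0.44 above that of all genes, with 10 of 37 higher, a smaller share than the 32.9% of all compared genes, and none lower. RBM6 had 1.96 and 1.67, NKTR 1.76 and 1.74 and CCNL1 1.36 and 1.77. Under scaling by the median of gene ratios, 2 of the 19 large genes were higher, as were 7 by the mean of per-barcode CPM, and 1 of the 37 splicing genes was higher and 4 lower. Of all genes, 219 of 3294 were higher and 1143 lower by the median of gene ratios, and 376 of 2922 were higher by the mean. None of 16 RNAs known to stay in the nucleus was found by symbol, and no annotation on the build of the files was used here for transcript length or intron content. Length and nuclear location were therefore not tested.

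Genes of stress programmes and p53 targets were compared as short lists. Of 12 compared immediate early genes none was higher or lower, with a median of -0.21 and -0.28, and the AP-1 genes JUN and FOS had log2 ratios of 0.26 and -0.51 in the control and 0.31 and -0.77 in the TGF-β1 library. Under scaling by the median of gene ratios, 5 of the 12 were lower, as were 5 of 9 heat shock genes and 6 of 13 genes of the integrated stress response. With that scaling 1143 of all 3294 compared genes were lower, so these counts of short lists are not read as results about them. On the main scale, of 9 heat shock genes 3 were lower (33.3%, against 20.5% of all compared genes), among them HSPA8 with -1.35 and -1.60 and HSPB1 with -1.34 and -1.57. Of the 13 integrated stress response genes, the cystine transporter gene SLC7A11 alone was higher, at 1.45 and 1.41. Only 4 of the p53 and apoptosis genes were compared, and by the median of gene ratios none of them was higher and 2 were lower. On the main scale MDM2, the negative regulator of p53, was higher at 1.61 and 1.32 and TP53INP1 at 1.60 and 1.66. BAX, a pore-forming protein of apoptosis, was lower at -1.92 and -2.13, but its neighbour FTL, the ferritin light chain, was not listed by symbol, so that the counts assigned to BAX are uncertain.

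Among all named genes, the largest decreases included LMLN, a metallopeptidase gene, at -2.33 and -2.62, and the largest increases included CSMD1, RMI1, SNRK, WSB1, LYPLA1, TRIM13, LAMA3 and GPR63. WSB1, a substrate receptor of a ubiquitin ligase, was the most abundant of these, at 1761 CPM in members against 329 in kept control cells and at 1792 against 363 in the TGF-β1 library. RMI1, a component of the complex that dissolves DNA crossovers, had log2 ratios of 2.66 and 2.63, and SNRK, a kinase, 2.49 and 2.50. The neighbour of LMLN, the ribosomal protein gene RPL35A, was not listed by symbol, and RMI1 lies next to HNRNPK, so that both assignments are uncertain where 3' reads run past an annotated gene end.

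A gene with no symbol also had a large ratio. ENSECAG00000016730, which was singled out after its values were seen and which the files do not pair with a symbol, stood at 37558 CPM in members against 2155 in kept control cells and at 17133 against 1717 in the TGF-β1 library (log2 4.12 and 3.32). It was 1 of the few genes with more UMIs per barcode in members, 196 against 116 in the control and 92.2 against 82.5 in the TGF-β1 library. CSMD1, which is listed next to it in the files and encodes a large complement regulator, had a larger ratio at a lower level, at 289 CPM against 15.7 in the control and 211 against 15.8 in the TGF-β1 library (log2 4.20 and 3.75).

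Both were also set against the MT- genes. Per 100 MT- UMIs, ENSECAG00000016730 had 15.4 UMIs in members and 14.0 in kept cells of the control library, and 10.3 and 13.4 in the TGF-β1 library. CSMD1 had 0.118 and 0.102 in the control and 0.127 and 0.123 in the TGF-β1 library. These ratios were not constant among barcodes. At an MT share of 4% to 10%, ENSECAG00000016730 had 22.8 in the control and 18.3 in the TGF-β1 library, at 10% to 25% it had 11.1 and 7.86, at 25% to 50% it had 19.4 and 8.91, and at 50% or more it had 15.4 and 8.20. CSMD1 ran from 0.0906 to 0.180 over these ranges in the control and from 0.0754 to 0.261 in the TGF-β1 library. The level of CSMD1 was 136 CPM in the control and 178 in the TGF-β1 library at an MT share of 4% to 10%, 219 and 146 at 10% to 25%, and 2189 and 2117 at 50% or more, where its log2 ratios to kept cells were 7.12 and 7.07. The barcodes with 50% or more gave 105 of its 310 control and 111 of its 498 TGF-β1 UMIs in the set. ENSECAG00000046518, also without a symbol and also chosen after its values were seen, had smaller log2 ratios of 2.68 and 2.81, and had 4.89 UMIs per 100 MT- UMIs in members against 12.1 in kept control cells and 3.44 against 6.37 in the TGF-β1 library.

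**Figure D3:**
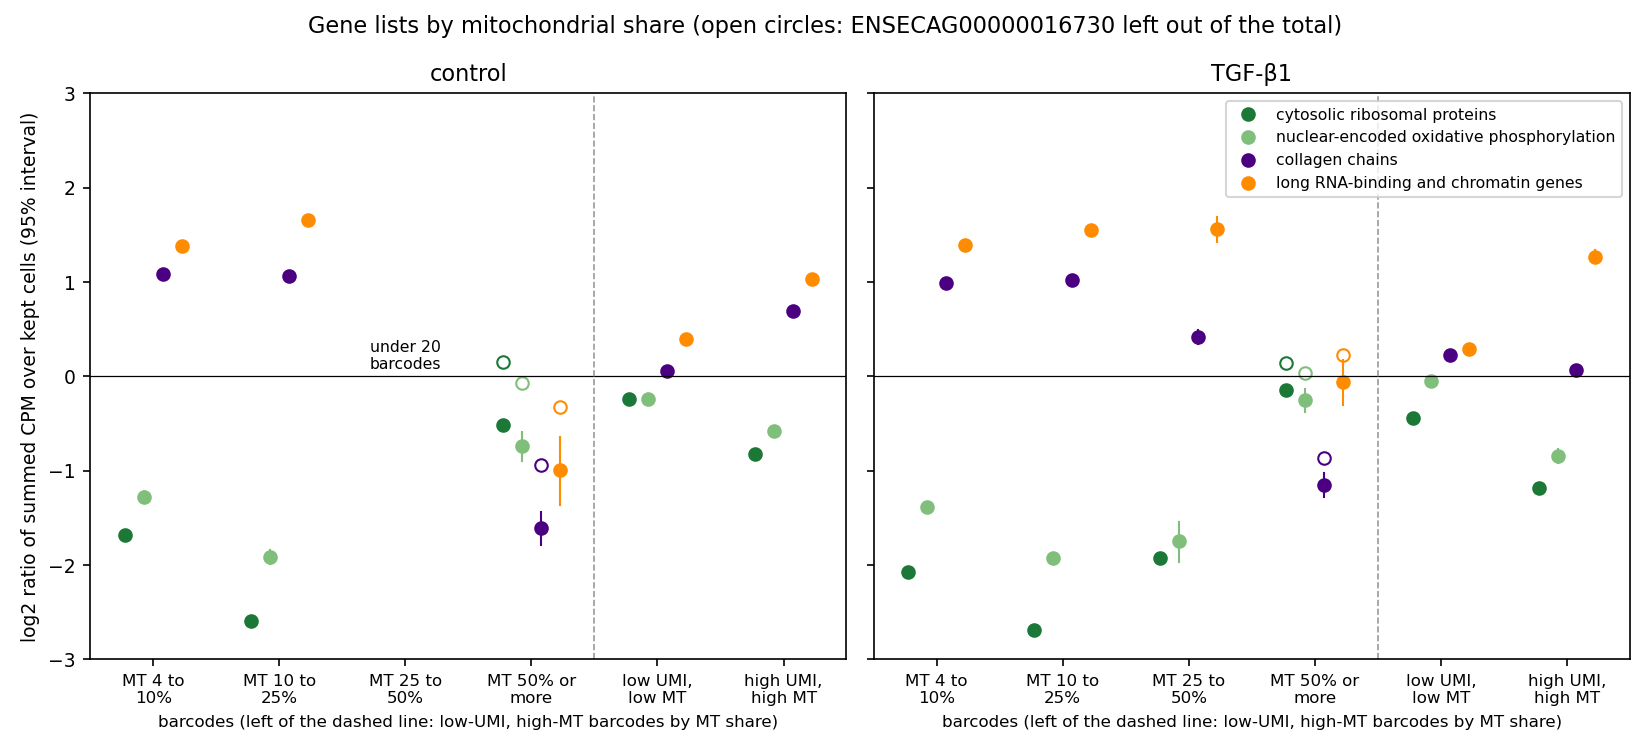
Log2 ratio of summed CPM over kept cells (y axis, bars are 95% intervals for counting error) for 4 gene lists in low-UMI, high-MT barcodes divided by MT share, and in the other excluded barcodes to the right of the dashed line, for each library. From 4% to 25% MT share ribosomal protein genes lie between -1.68 and -2.69 and collagen chains near 1, and at 50% or more ribosomal protein genes lie at -0.52 and -0.15 and collagen chains at -1.61 and -1.15.

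The smaller ribosomal and larger matrix share were seen together in the barcodes with an MT share under 25%, as the plot by MT share shows. At 25% to 50% the median ribosomal share of non-MT UMIs was still small, at 4.43% in the control and 6.06% under TGF-β1. The 18 control barcodes there were too few to be compared further. In the 25 TGF-β1 barcodes RPS27A had a log2 ratio of -2.26, FN1 0.80 and COL1A1 -0.27. At an MT share of 4% to 10%, the summed CPM of ribosomal protein genes had a log2 ratio of -1.68 in the control and -2.07 in the TGF-β1 library. At 10% to 25% it was lower still, at -2.59 (interval -2.61 to -2.57) and -2.69 (-2.71 to -2.67). Collagen chains did not follow that step, with 1.08 and 1.07 in the control and 0.99 and 1.02 in the TGF-β1 library. Long RNA-binding and chromatin genes had 1.39 and 1.66 in the control and 1.40 and 1.55 in the TGF-β1 library. Single genes went the same way: VIM had -0.99 at 4% to 10% and -2.03 at 10% to 25% in the control library, and WSB1 had 1.84 and 2.89. When the set was limited to members with an MT share under 25%, a choice made after seeing the data, 1081 of the 1083 higher and 663 of the 676 lower genes were called the same way.

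At an MT share of 50% or more the profile was another one. Ribosomal protein genes were close to the level of kept cells, with a log2 ratio of -0.52 (interval -0.55 to -0.48) in the control and -0.15 (-0.18 to -0.11) in the TGF-β1 library. Their median share of non-MT UMIs per barcode was 14.0% and 16.1% in these barcodes, against 2.10% and 2.17% at an MT share of 10% to 25%. Collagen chains were lower than in kept cells, at -1.61 and -1.15, and long RNA-binding and chromatin genes were at -0.99 and -0.06. COL1A1 had log2 ratios of -1.88 and -1.72. The unnamed gene ENSECAG00000016730 took 37.1% and 18.1% of all non-MT UMIs of these barcodes, and with it left out of the total the ribosomal protein genes had 0.15 and 0.14, the collagen chains -0.94 and -0.86 and the long genes -0.32 and 0.22.

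Few of the calls made over the whole set held in these barcodes. Of the 1083 higher genes, 332 had enough CPM there, and 9 of them were higher and 64 were lower in both libraries. Of the 676 lower genes, 646 had enough CPM, and 43 were lower and none was higher. The 1997 genes compared there gave 12 higher and 270 lower genes in all, from 47976 and 52436 UMIs, and the depth is too low to describe single genes of moderate level. With ENSECAG00000016730 left out of the total, 2202 genes were compared, of which 24 were higher and 99 lower. Of the 1083, 386 were then compared, with 13 higher and 30 lower, and of the 676, 649 were compared, with 10 lower and none higher. The RNA that is free in the droplets was not measured here, and its part in barcodes with so few UMIs was not tested.

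The other excluded barcodes had smaller ratios for these lists. The 276 control and 165 TGF-β1 barcodes with fewer than 20000 UMIs and an MT share under 4% had ribosomal protein genes at -0.23 and -0.44, collagen chains at 0.06 and 0.23 and long RNA-binding and chromatin genes at 0.39 and 0.29. Single genes that were high in the set were also high there, with ENSECAG00000046518 at 2.05 and 2.64, CSMD1 at 2.23 and 1.41 and ENSECAG00000016730 at 0.89 and 1.13. The 37 control and 8 TGF-β1 barcodes with at least 20000 UMIs and an MT share of 4% or more had ribosomal protein genes at -0.82 and -1.18 and long genes at 1.03 and 1.27, with collagen chains at 0.69 and 0.07. The direction of the ribosomal and long-gene ratios was thus shared with the deeper high-MT barcodes, at a smaller size in summed CPM. Per barcode, their median ribosomal share was 5.98% in the control and 5.06% under TGF-β1, against 6.87% and 3.87% in members. The 8 TGF-β1 barcodes are too few for single genes.

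**Figure D4:**
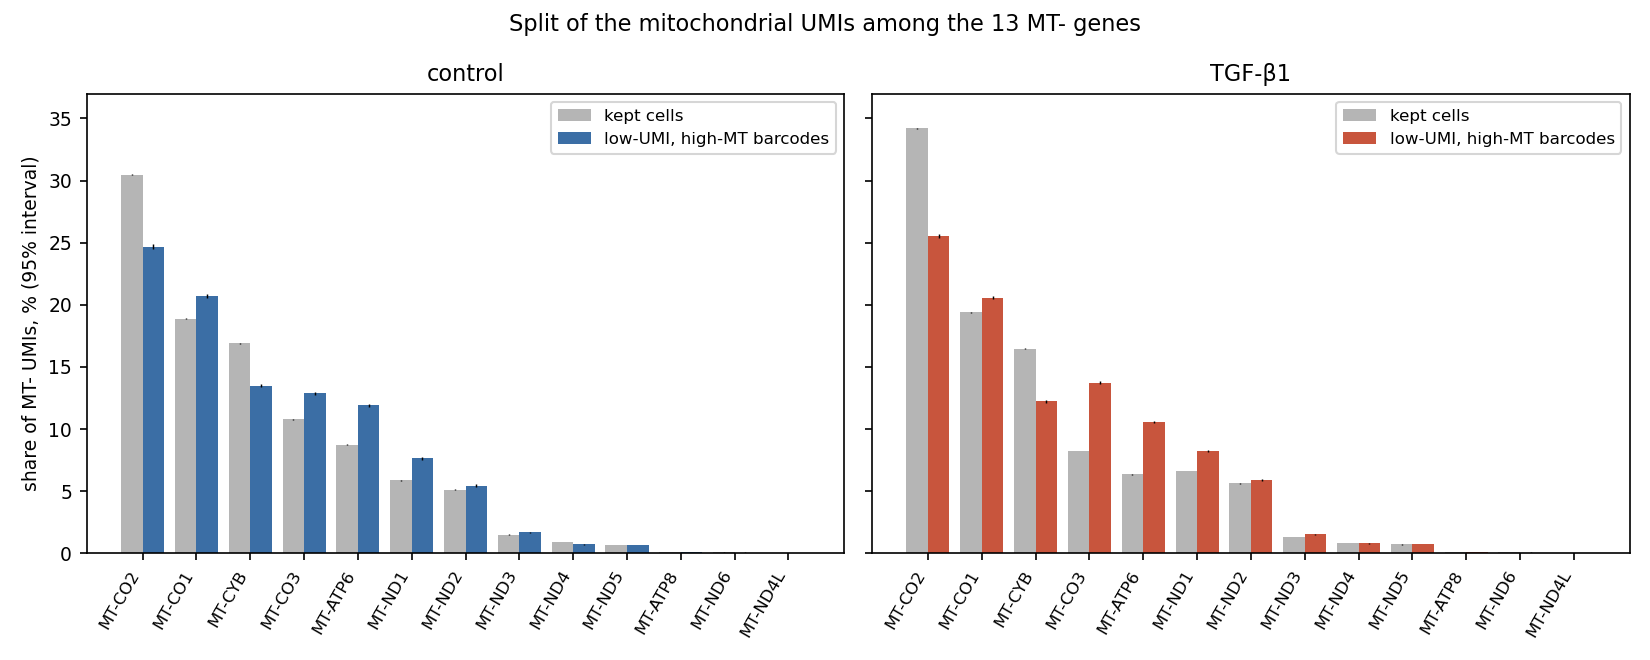
Percentage of all MT- UMIs (y axis, bars from 0, with 95% counting intervals) on each of the 13 MT- genes in kept cells (grey) and low-UMI, high-MT barcodes (colour) of each library. MT-CO2 and MT-CYB take a smaller share in the low-UMI, high-MT barcodes, and MT-CO3 and MT-ATP6 a larger one, in both libraries.

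The mitochondrial transcripts themselves were split a little differently in members. The mitochondrial genome encodes 13 proteins, all subunits of the respiratory chain or ATP synthase, and each had more UMIs per barcode in members than in kept cells. Members were chosen by their MT share, so that MT- UMIs per barcode are a description only. As shares of the MT- UMIs, 9 were larger and 4 smaller in members in both libraries. The counting interval of the ratio left out 0 in both libraries for 6 of the larger and 3 of the smaller, and it included 0 in at least 1 library for MT-ATP8, MT-ND4L, MT-ND5 and MT-ND6. With members under 10000 UMIs only 6 were larger in both. MT-CO2, a subunit of cytochrome c oxidase, had the largest share, 24.7% in members against 30.5% in kept control cells and 25.5% against 34.2% in the TGF-β1 library. MT-CYB, cytochrome b of complex III, was also smaller, at 13.5% against 16.9% and 12.2% against 16.5%. MT-CO3 was larger, at 12.9% against 10.8% and 13.7% against 8.23%, and so was MT-ATP6 of ATP synthase, at 11.9% against 8.75% and 10.6% against 6.37%. In the control members with an MT share of 4% to 10%, MT-ATP6 took 8.43%, below kept cells. The low-UMI barcodes with an MT share under 4% also had smaller shares than kept cells of MT-CO2, at 25.5% in the control and 29.6% under TGF-β1, and of MT-CYB, at 13.9% and 15.7%. MT-CO1 took 20.7% and 20.6% in members, against 18.9% and 19.4% in kept cells. In the low-UMI barcodes with an MT share under 4% it took more, at 23.1% and 23.3%. Per barcode, MT-CO3 had 165 UMIs in a member against 89.2 in a kept control cell, and 123 against 50.8 in the TGF-β1 library.

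**Figure D5:**
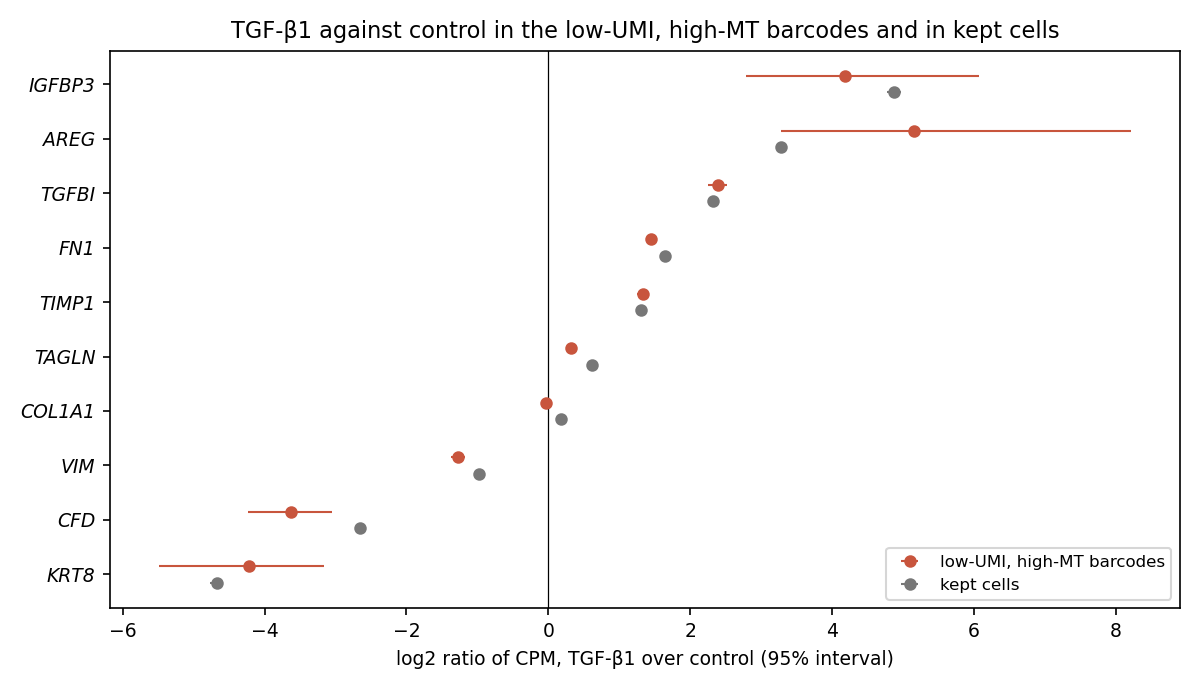
Log2 ratio of CPM, TGF-β1 over control (x axis, lines are 95% intervals for counting error), for 10 named genes in low-UMI, high-MT barcodes (red) and kept cells (grey). TGFBI, FN1 and TIMP1 lie to the right and VIM, CFD and KRT8 to the left in both classes of barcode.

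TGF-β1 and control were also compared within the discarded barcodes. Of 3833 genes whose CPM in members, averaged over the libraries, was 50 or more, 121 (3.16%) were more than 2-fold higher and 94 (2.45%) more than 2-fold lower under TGF-β1 within the low-UMI, high-MT barcodes. Within kept cells 106 (2.77%) were higher and 74 (1.93%) lower. Of the genes higher, 79 were shared, which is 74.5% of those of kept cells and 65.3% of those of members, and of the genes lower 58 were shared, or 78.4% and 61.7%. Members and kept cells of a library come from the same pool and the same capture, so that these shares are not independent of each other.

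The genes given here and in the next paragraph include TGF-β1 responders named earlier for their change in these same libraries. Their values are therefore a description and no support. Among matrix genes and known targets of the pathway, TGFBI, a secreted adhesion protein named for its induction by TGF-β, stood at 457 CPM in control members and 2392 in TGF-β1 members (log2 2.39, interval 2.25 to 2.52), against a log2 ratio of 2.32 in kept cells. FN1 went from 5643 to 15425 CPM in members, a log2 ratio of 1.45 against 1.65 in kept cells. PMEPA1, a feedback inhibitor of the pathway, had 1.79 in members and 2.13 in kept cells, COL12A1 1.23 and 1.51, TNC 1.22 and 1.55, and FAP, the serine protease of activated fibroblasts, 1.37 and 1.63. TIMP1 had 1.34 and 1.30, LOX, the collagen crosslinking enzyme, 1.23 and 1.38, and CCN2, connective tissue growth factor, 0.92 and 0.84. The contractile gene TAGLN differed less, with 0.32 in members and 0.61 in kept cells. COL1A1 had -0.03 (interval -0.07 to -0.001) in members and 0.18 in kept cells.

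Of the genes lower under TGF-β1, CFD, the complement protease factor D, had 168 UMIs in control and 30 in TGF-β1 members, a log2 ratio of -3.62 (interval -4.23 to -3.06) against -2.65 in kept cells. PDGFRA had -1.99 and -1.60, the vasodilator peptide gene ADM -1.76 and -2.56, SVEP1, a large adhesion protein, -1.85 and -2.23, and VIM -1.27 and -0.98. Below the minimum on CPM, the keratin gene KRT8 had 68 and 8 UMIs in members (log2 -4.22 against -4.68 in kept cells) and IGFBP3, a growth factor binding protein, 4 and 159 (4.18 against 4.87). AREG, an epidermal growth factor receptor ligand, had 2 and 157 UMIs, a log2 ratio of 5.16 with an interval of 3.28 to 8.22. Barcodes with an MT share of 50% or more were a larger part of the control members than of the TGF-β1 members. With members under 25% MT share, 115 genes were higher and 100 lower. The count of higher genes was 229 with members under 10000 UMIs and 266 by the mean of per-barcode CPM. It was 198, 78 and 476 with a minimum of 25 CPM, of 100 CPM and with none, where 175, 53 and 702 were lower, and 61 were lower with MT- genes in the total. At 50% or more, FN1 had 60 UMIs in the control and 210 under TGF-β1, which gave a log2 ratio of 1.68 (interval 1.26 to 2.12). COL1A1 stood at 1542 CPM in the control and 1964 under TGF-β1 there, and VIM at 2501 and 1735. ENSECAG00000016730 took 37.1% of the control and 18.1% of the TGF-β1 total of these barcodes, which raises such ratios of the other genes.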

How the data were processed

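The deposited files hold UMI counts per gene and barcode, 1 matrix per library, made by the authors with Cell Ranger (7.1.0 in the submitters' processing notes and 8.0.1 in the file headers) against EquCab3.0. Whether intronic reads were counted is not given in the sources used here. The authors' filters and doublet removal had not been applied to these files, and no doublet caller was run here.

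Counts were summed over members and over kept cells of each library and divided by their non-MT total to give CPM. Members held 1334000 control and 2748401 TGF-β1 UMIs in all, 262174 and 391726 of them on MT- genes, from which the width of the intervals follows. Log2 ratios carry no pseudocount, and none is given with 3 or fewer UMIs in both classes. Ratios have exact binomial intervals, as do shares (Clopper-Pearson, 95%), which cover counting error only. The files list 21426 genes, of which 5196 have no symbol. Neighbouring genes were read from RefSeq by symbol, whose assembly is not that of the files, and no coordinates or sequences were used.

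Named in the text are the MT- genes, the 10 largest ratios with a symbol in each direction, the 3 highest and 3 lowest genes of each list, genes the study names and cell type markers, and not all of these are reported here. TGF-β1 responders named earlier for their change in these same libraries were named too. The members and the lists were chosen with earlier results of these data known. On simulated counts with 200 genes changed, all 195 that were compared were found, with 0 false calls among 2548 unchanged genes. Every planted change was larger than the 2-fold limit, and the counts carried counting error only. That outcome checks the calculation and says nothing on differences between barcodes or libraries. Python 3.11.15 was used with numpy 2.4.6, scipy 1.17.1, pandas 2.3.3 and matplotlib 3.10.9. The alternatives were 13 listed with the design and 2 added after seeing the data.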

Additional observations from a re-analysis of the deposited data

How the results depend on the processing

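The main limits are 1 library per condition, counting error as the only error given, and the absence of gene lengths and of a measure of free RNA. The comparison with gene features that was planned was not run, because the annotation used here is on another assembly. No paired analysis was possible because the labels carry no replicate numbers and the count files do not assign barcodes to the mares, and no library was left out because each condition has 1.

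The share of barcodes in the set was 3.54% in the control and 6.05% in the TGF-β1 library with an MT limit of 10%, 7.42% in the TGF-β1 library with a limit of 6%, 3.35% and 6.42% with members under 10000 UMIs, and 3.56% and 5.58% with members of at least 2000 UMIs. Of the genes compared with kept cells, 705 were higher with MT- genes in the total, 219 higher and 1143 lower by the median of ratios, 376 and 252 by the mean of per-barcode CPM, 523 and 448 at a minimum of 100 CPM, 3749 and 1072 with no minimum, and 1755 higher at 25 CPM. For TGF-β1 over control within members, 229 genes were higher with members under 10000 UMIs, 266 by the per-barcode mean, and 198, 78 and 476 at 25 CPM, 100 CPM and no minimum. Genes lower were 175, 53 and 702 at these minimums and 61 with MT- genes in the total. The lists above the median of all genes in both libraries numbered 6 (5 to 7 over the alternatives), and those below it 21 (20 to 24). At 50% or more MT share, leaving out ENSECAG00000016730 moved the ribosomal protein genes to 0.15 and 0.14, collagen chains to -0.94 and -0.86 and long genes to -0.32 and 0.22. Among the named genes past 2-fold, under the 13 planned and 2 added alternatives, GCLC reversed, to -0.12 in the control with members under 10000 UMIs. The barcodes with 50% or more MT share are not among these alternatives, and values there are given separately. The causes were not tested.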
